A study of Mus musculus with 15 samples.

Results

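The net change from starting fibroblasts to cells after 3 days in differentiation medium was measured by RNA-Seq as MEFD3plu/MEFD0, with 3 samples in each condition out of 15 samples in the series. MEFs are mouse embryonic fibroblasts, a primary mesenchymal culture. Here they came from wild-type BALB/c embryos 10.5 days old, and no transgene or deletion was carried by any condition. MEFD0 samples were taken at day 0 from growth medium (DMEM with 10% FBS) before any treatment. MEFD3plu samples had spent 3 days in differentiation medium. It held rosiglitazone at 10 µM, which activates Pparg, dexamethasone at 1 µM, a synthetic glucocorticoid, insulin at 10 µg/mL, and IBMX at 0.5 mM, which blocks the breakdown of cAMP. The 3 MEFD3min samples, untreated and also taken at day 3, were set beside them to find genes that stood at the same level in MEFD3plu and MEFD0 while untreated cells moved away. All conditions carry the replicate numbers 1, 3 and 4, and values below are listed in that order. Nothing in the labels says that the replicates came from separate embryos, so p-values measure the spread between these samples, which may be technical.

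As background, adipogenesis runs through an early wave of the transcription factors Cebpb and Cebpd, which is followed by Pparg and Cebpa, the factors that turn on the genes of lipid uptake, triglyceride storage and hormone secretion. Fibroblasts that enter this program leave the cell cycle and take down the actin stress fibres that keep them flat and spread. Cell cycle genes are held together by a few short promoter elements. E2F factors act through TTTGGCGC or TTTCCCGC at S phase genes, and the CHR element TTTGAA is read by the complexes that switch G2/M genes. Interferon-stimulated genes carry GAAANNGAAA, the core of the element bound by the STAT and IRF factors.

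These elements are shown first, since the gene lists that hold them more often than other genes fell together in MEFD3plu or stood apart in MEFD3min. All sequences are upstream of the annotated start in RefSeq promoters of GRCm38.p6, read 5′ to 3′ on the strand of the gene, with the element in capitals on whichever strand it was found. Promoters were available for 10984 of the 15997 genes tested. The interferon element was present in 3.79% of them, in 53.3% of the 30 matched genes of an interferon response list and in 56.2% of the 16 matched antigen presentation genes. E2F letters were present in 3.33% of all promoters and 36.4% of 33 matched S phase genes, and the CHR letters in 14.6% of all and 78.1% of 32 matched G2/M genes. A match describes the letters only. Trim30a (chr7:104465195-104465254), B2m (chr2:122147523-122147582) and Isg15 (chr4:156200862-156200921) stand for genes that were higher in MEFD3min than in MEFD0 and MEFD3plu. Mcm5 (chr8:75109335-75109392) and Mcm6 (chr1:128359783-128359840) stand for S phase, and Cdk1 (chr10:69352953-69353008) and Mki67 (chr7:135716465-135716520) for G2/M, which were lower in MEFD3plu.
Trim30a: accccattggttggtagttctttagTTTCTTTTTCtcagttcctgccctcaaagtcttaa
B2m: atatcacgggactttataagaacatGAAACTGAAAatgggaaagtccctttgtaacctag
Isg15: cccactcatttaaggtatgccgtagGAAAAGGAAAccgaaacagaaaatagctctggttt
Mcm5: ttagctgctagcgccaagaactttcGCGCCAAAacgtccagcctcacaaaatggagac
Mcm6: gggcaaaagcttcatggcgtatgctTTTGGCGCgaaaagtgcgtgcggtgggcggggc
Cdk1: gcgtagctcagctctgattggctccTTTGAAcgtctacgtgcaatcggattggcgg
Mki67: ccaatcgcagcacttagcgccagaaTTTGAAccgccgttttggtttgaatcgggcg

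Sequencing depth was 27144003 to 35852844 counts a sample in MEFD0, 29015042 to 37281126 in MEFD3plu and 31826222 to 36039085 in MEFD3min. Euclidean distances on log2 CPM (CPM, counts scaled to library size with TMM factors) were 55.7 to 57.8 between MEFD0 samples, 54.9 to 60.6 between MEFD3plu samples and 199 to 203 between the conditions. Mitochondrial genes took 3.05% to 3.54% of the counts in MEFD0 and 5.26% to 6.64% in MEFD3plu. Fibroblast markers Col1a1, Col1a2, Col3a1, Fn1 and Vim were expressed in every sample, while Adgre1, C1qa, C1qb, C1qc and Spi1 of macrophages, Myod1, Myog and Pax7 of muscle and Sox10 of neural crest had no count in the 6 samples. Of all 12 fibroblast markers listed, 7 were higher and 5 lower in MEFD3plu/MEFD0. Other members of the macrophage, muscle and neural lists were detected, and some are given at the end. Of 10 tested adipocyte markers, all 10 were upregulated in MEFD3plu, and their summed level rose from 29.8 to 36.8 CPM in MEFD0 to 4136 to 5331 CPM in MEFD3plu.

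Over the whole transcriptome, 10162 of 15997 genes (63.5%) were DEGs in MEFD3plu/MEFD0 at an adjusted p under 0.05 (edgeR, quasi-likelihood test, adjusted by Benjamini and Hochberg). Of these, 5415 (33.9% of the genes tested) were upregulated and 4747 (29.7%) downregulated. This balance turned with total counts as the scaling, which gave 4686 upregulated and 5373 downregulated genes. A change of at least 2-fold was found for 4955 of them (31%), 2676 higher and 2279 lower. The log2 fold change had a median of 0.07 over all genes tested. An exact two-sided test of 3 samples against 3 cannot go below 0.1, so all p-values come from this model over all genes. A fold change is on the log2 scale below, with its standard error, and adjusted p-values are from this same test.

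**Figure D1:**
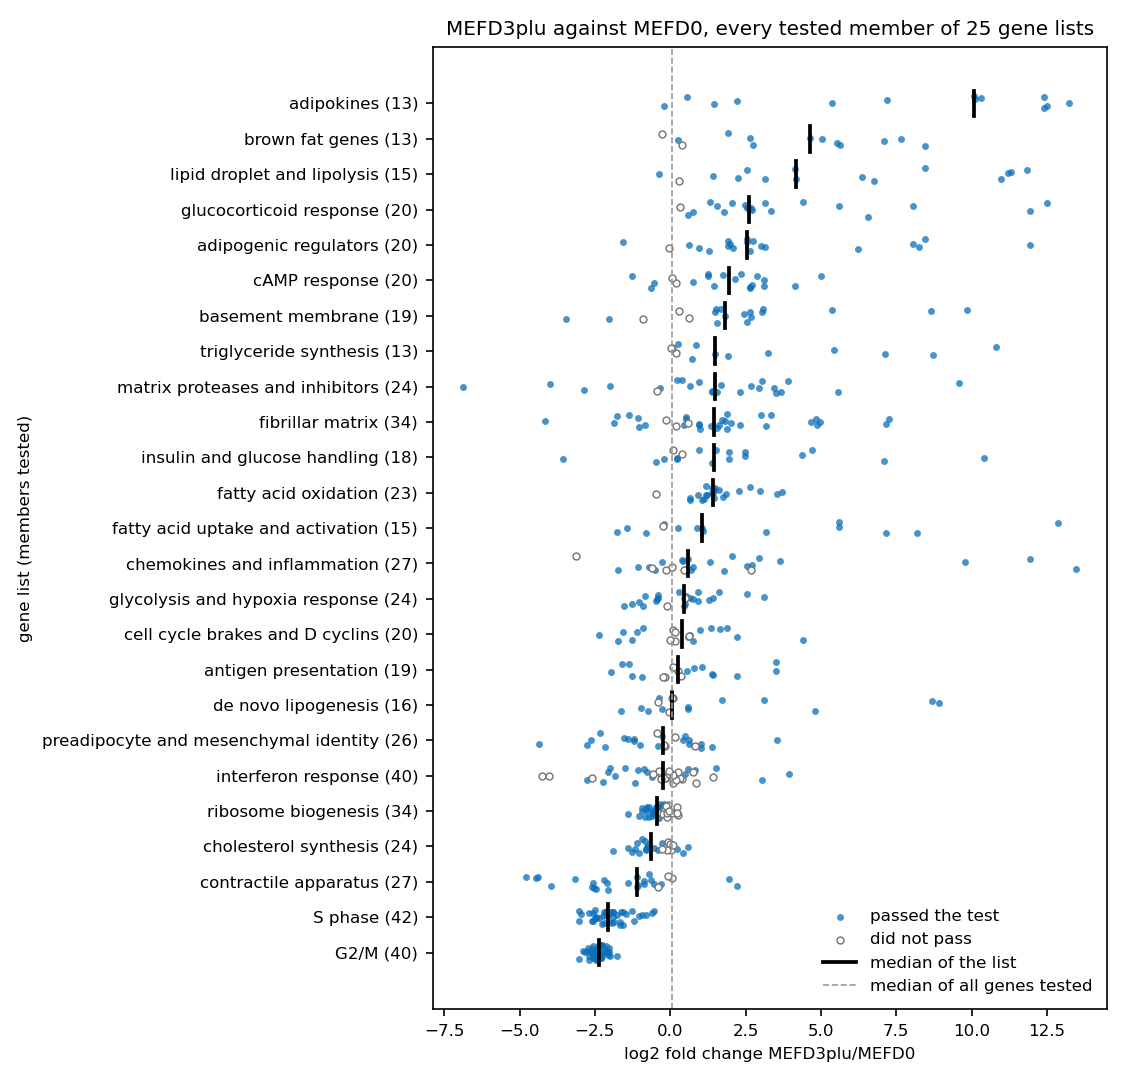
Log2 fold change in MEFD3plu/MEFD0 (x axis) of every tested member of 25 gene lists (y axis), with filled dots for genes that passed the test, open dots for those that did not, black bars for list medians and a dashed line for the median of all genes. Lists of fat storage and hormone response lie to the right, S phase and G2/M lie wholly to the left with medians of -2.06 and -2.37, ribosome biogenesis lies mostly to the left with a median of -0.45, and interferon response and de novo lipogenesis spread to both sides of 0.

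The 10 most upregulated genes (mean log2 CPM 3 or more) were led by Cd36, the fatty acid translocase, on chromosome 5 of GRCm38 from 17781690 to 17888801. Cd36 had 0, 0.212 and 0.698 CPM in MEFD0 and 2310, 2122 and 2896 CPM in MEFD3plu. The log2 fold change was 12.88 (SE 0.632, adjusted p = 5.77e-13 in edgeR's test). Absence of overlap between the conditions was required for the choice of these 10 genes. Lcn2, a secreted lipocalin, and Cidec, a protein of lipid droplet fusion, followed at 12.49 and 11.85. Fabp4, the adipocyte fatty acid-binding protein, had 8.27, 10.8 and 12 CPM in MEFD0 and 2849, 2658 and 3671 CPM in MEFD3plu, a log2 fold change of 8.20 (SE 0.145). Agt, the precursor of angiotensin, had a log2 fold change of 10.12 (SE 0.253). These 5 genes stayed low in MEFD3min, at mean levels of 0.864 (Cd36), 0.0468 (Lcn2), 0.276 (Cidec), 6.12 (Fabp4) and 0.116 CPM (Agt).

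The other 5 of the 10 most upregulated genes were also higher in untreated cells at day 3. H19, an imprinted noncoding RNA, had 0.960, 1.48 and 3.52 CPM in MEFD0, 3092, 3162 and 3517 CPM in MEFD3plu and 1620, 1377 and 1704 CPM in MEFD3min. Igf2, its imprinted neighbour and a fetal growth factor, had log2 fold changes of 10.32 in MEFD3plu/MEFD0 and 11.56 in MEFD3min/MEFD0. Apod, a lipocalin-type apolipoprotein, had 9.80 and 8.35, Adh1, an alcohol and retinol dehydrogenase, 9.27 and 4.20, and Lama4, a laminin chain, 8.65 and 8.60. The change of Lama4 against MEFD0 was thus present in each day 3 condition, at 200 ± 5.60 CPM in MEFD3plu and 193 ± 33.5 CPM in MEFD3min (mean ± SD, n = 3 each). In MEFD0, replicate 4 held the highest level of several of these genes. Without MEFD0 replicate 4, the log2 fold change was 14.28 for Cd36, 14.21 for Lcn2, 11.35 for H19, 11.96 for Igf2 and 10.72 for Apod, and all remained DEGs. Exons of Igf2 are overlapped over 62.8% of their bases by another gene of the same strand.

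Of the 10 most downregulated genes, 9 are described here, led by S100a4, Gpnmb, Ankrd1 and Tagln. S100a4, a calcium-binding protein used as a fibroblast marker, had 134, 135 and 169 CPM in MEFD0 and 2.11, 2.19 and 1.86 CPM in MEFD3plu (log2 fold change -6.15, SE 0.247), although 51.7% of its exon bases are overlapped by another gene of the same strand. Gpnmb, a transmembrane glycoprotein on chromosome 6 from 49036546 to 49070929, had 726, 798 and 628 CPM in MEFD0 and 18.7, 16.2 and 18.5 CPM in MEFD3plu (-5.33, SE 0.144, adjusted p = 4.9e-14 in edgeR's test). The absence of overlap between conditions was a condition of this choice of genes. Ankrd1, a nuclear and sarcomeric ankyrin repeat protein induced by mechanical load, had a log2 fold change of -4.84 (SE 0.108). Fxyd5, Adgrg6, Nptx1 and Podnl1 fell by 4.47, 4.46, 4.36 and 4.34 on the log2 scale. MEFD3min lay between MEFD0 and MEFD3plu for these 9, with mean levels such as 200 CPM for Gpnmb and 64.5 CPM for Ankrd1.

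**Figure D2:**
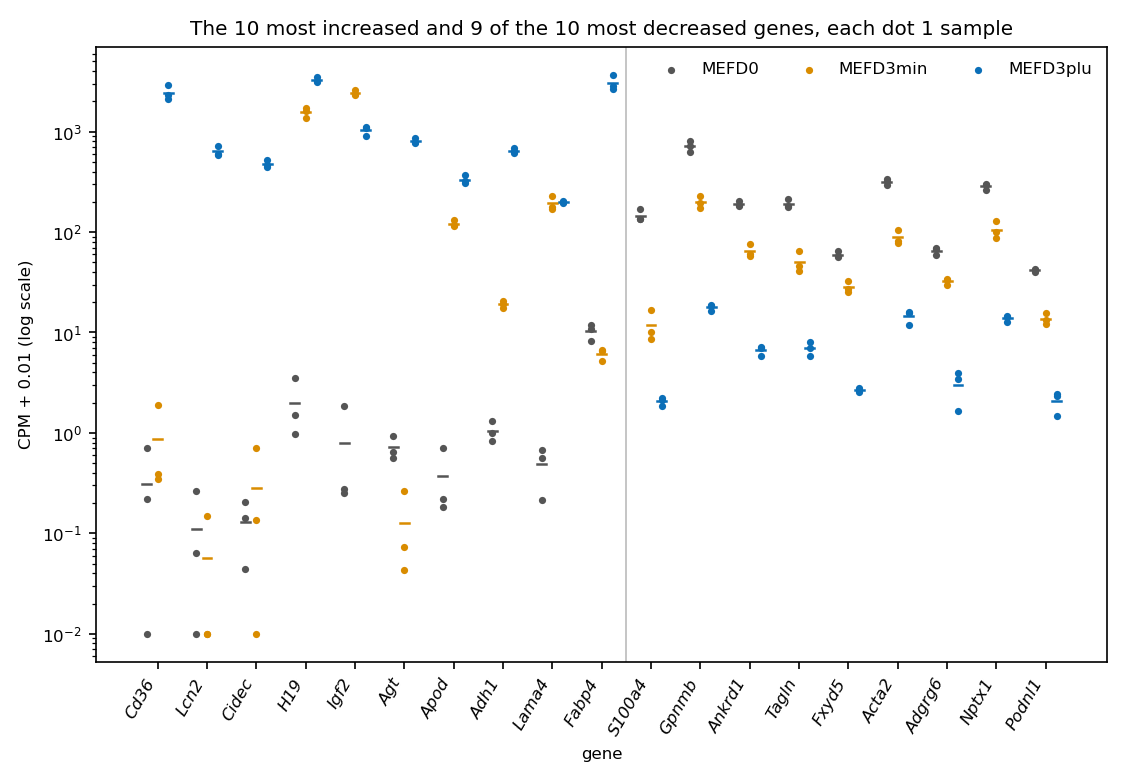
CPM + 0.01 on a log axis of the 10 most upregulated genes (left of the line) and 9 of the 10 most downregulated genes (right) in MEFD3plu/MEFD0, with each dot 1 sample and short lines for means of 3. MEFD3min samples join MEFD3plu for H19, Igf2 and Lama4 and join MEFD0 for Cd36, Lcn2 and Cidec, and lie between MEFD0 and MEFD3plu for the 9 genes on the right.

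Regulators of adipogenesis were mostly upregulated. The 25 lists used below hold 609 entries, of which 586 passed the filter on low counts and were tested. Of 20 tested regulators, 18 were higher and 1 was lower in MEFD3plu, with a median log2 fold change of 2.56, against 33.9% and 29.7% of all genes and a median of 0.07. Cebpa had 1.27, 1.8 and 1.93 CPM in MEFD0 and 123, 120 and 135 CPM in MEFD3plu (log2 fold change 6.22, SE 0.173, adjusted p = 1.42e-14 in edgeR's test). Pparg, already present at the start with 17.9, 16.5 and 19.4 CPM, had 73.2, 69.3 and 87.4 CPM in MEFD3plu (2.1, SE 0.0989). Each factor was higher in every treated sample than in any starting sample. The early factors Cebpb and Cebpd were 6.70-fold and 8.84-fold above MEFD0 after 3 days. Nr1h3, the oxysterol receptor LXR alpha, stood at 0.0689 ± 0.0426 CPM in MEFD0 and 22.2 ± 1.14 CPM in MEFD3plu (mean ± SD of 3 samples). Zbtb16, a zinc finger factor induced by glucocorticoids, had no count in MEFD0 and 17.0, 14.6 and 12.8 CPM in MEFD3plu, at least 502-fold higher. Zfp423, a preadipocyte determination factor, was at least 45.3-fold higher, from no count to 1.33 CPM. Klf4 fell by 1.56 on the log2 scale. In bulk RNA, more cells of a type and more RNA per cell cannot be told apart, here and for every gene group below. Antisense genes overlap 20.7% of the exon bases of Cebpb and 15% of those of Cebpd.

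Genes of fatty acid uptake, triglyceride assembly and storage followed in the same direction. Of 15 uptake and activation genes, 10 were higher and 4 lower (median 1.04). Lpl, the lipase that releases fatty acids from lipoproteins, had 25.5, 28.7 and 28.0 CPM in MEFD0 and 3925, 3656 and 4211 CPM in MEFD3plu, a 143-fold difference. Acsl1, the acyl-CoA synthetase of fat cells, rose by 5.61 (SE 0.0937) and Fabp5 by 3.18 (SE 0.155). Not all members went the same way: Acsl5, another acyl-CoA synthetase, fell from 219 ± 5.57 to 64.8 ± 1.85 CPM and the transporter Slc27a1 from 38.0 ± 1.96 to 14.0 ± 2.67 CPM (mean ± SD, n = 3 each). Both were also lower in MEFD3min, at 82.9 and 17.0 CPM.

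Triglyceride synthesis held 10 upregulated genes of 13 tested and none that passed in the other direction (median 1.47). Dgat2, which closes triglyceride synthesis, had 1.92, 2.23 and 2.09 CPM in MEFD0 and 284, 314 and 284 CPM in MEFD3plu (log2 fold change 7.13, SE 0.137, adjusted p = 4.01e-16 in edgeR's test). Gpd1, which supplies glycerol phosphate, rose by 10.81 (SE 0.605) and Agpat2, an acyltransferase mutated in lipodystrophy, by 5.45 (SE 0.103). Without MEFD0 replicate 4 the log2 fold change of Gpd1 was 11.64, and 13.0% of its exon bases lie opposite another gene. Pck1, of glyceroneogenesis, had no count in MEFD0 and was at least 54.2-fold higher. Bscl2, which encodes seipin, had 8.84 CPM in MEFD0 and 8.92 in MEFD3plu, and its 95% interval lay within 1.5-fold.

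Of 15 lipid droplet and lipolysis genes, 13 were higher, 1 was lower and the median was 4.18. Requiring 10 counts in every sample left 7 tested, 5 higher and 1 lower, with a median of 2.58. Plin1, the coat protein of adipocyte droplets, had 0, 0 and 0.195 CPM in MEFD0 and 170, 177 and 158 CPM in MEFD3plu. G0s2, the inhibitor of adipose triglyceride lipase, had 0.206, 0 and 0.0558 CPM against 167, 152 and 181 CPM, and the lipase itself, Pnpla2, had 20.4, 23.4 and 22.9 CPM against 396, 439 and 341 CPM. The lipase and its inhibitor were thus both higher in every treated sample. Mgll, the monoglyceride lipase, and Cidea had no count in MEFD0 and were at least 331-fold and 45.7-fold higher. Plin3, a general droplet coat protein, was the 1 that fell, by 0.37 (SE 0.0762). The fold change of Plin1 rested on few counts in MEFD0, being 11.19 on the log2 scale with all samples, 15.42 without MEFD0 replicate 4 and 10.56 without MEFD0 replicate 3. For G0s2 it was 10.99 with all samples, 12.39 without MEFD0 replicate 1 and 10.35 without MEFD0 replicate 3.

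Among secreted products, 12 of 13 tested adipokine genes were higher, 1 was lower, and the median was 10.06, or 7.18 with genes that had no count in MEFD0 set at their lower bound. With no filter, 12 of 16 were higher, 0 lower and the median was 6.27. Requiring 10 counts in every sample left 4 tested, 3 higher and 1 lower, with a median of 1.03. Adipoq, encoding adiponectin, had 3 counts in all of MEFD0 and 290, 291 and 380 CPM in MEFD3plu, a ratio of 11078 with a counting interval of 3791 to 53716. Retn, encoding resistin, had 2 counts in MEFD0 and a ratio of 6595 (1826 to 54461). Cfd, encoding adipsin, was at least 713-fold higher. Lep, encoding leptin, was at 0 in MEFD0 and at 0.0104 CPM in MEFD3plu, too low to test. Fitted log2 fold changes moved with 1 sample, from 13.25 to 16.35 without MEFD0 replicate 3 for Adipoq and from 12.42 to 15.02 without MEFD0 replicate 4 for Retn. Apln, encoding apelin, passed the test in the other direction by a small margin, from 40.9, 38.3 and 38.3 CPM to 33.1, 33.6 and 33.8 CPM (log2 fold change -0.22, SE 0.0798), a call lost with no filter and without MEFD0 replicate 1 or MEFD3plu replicate 1 or 3. MEFD3min stood at 8.13 ± 0.609 CPM (mean ± SD, n = 3). Counting intervals and lower bounds cover counting error only.

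Genes of insulin signalling and glucose uptake were higher for 13 of 18 and lower for 3 (median 1.44). Slc2a4, the insulin-responsive glucose transporter, had no count in MEFD0 and 5.08, 5.04 and 5.53 CPM in MEFD3plu, at least 179-fold higher. Slc2a1, the basal transporter, fell by 0.47 on the log2 scale. Pde3b, the phosphodiesterase through which insulin lowers cAMP, had 12.8, 13.3 and 12.2 CPM in MEFD0 and 332, 333 and 337 CPM in MEFD3plu (log2 fold change 4.71, SE 0.0793). Grb14, an adaptor that inhibits the insulin receptor, moved the other way, from 65.6, 66.4 and 65.1 CPM to 5.42, 5.39 and 5.75 CPM (-3.57, SE 0.109), and was at 11.2 CPM in MEFD3min. Akt1, at 428 and 373 CPM, fell by 0.20 (SE 0.0794) and lay within 1.5-fold. Its call was lost without any 1 of MEFD0 replicates 1 and 3 and MEFD3plu replicates 1 and 4. The same held with no filter and with 10 counts required in every sample.

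Genes of the glucocorticoid and cAMP response lists were mostly above the day 0 level. The agents of the medium were given together, so their separate parts cannot be told apart. Of 20 glucocorticoid response genes, 19 were higher and none passed in the other direction (median 2.62). Fkbp5, a chaperone of the glucocorticoid receptor and a standard target of it, had 41.6, 38.6 and 34.3 CPM in MEFD0 and 388, 395 and 368 CPM in MEFD3plu, while Tsc22d3 and Per1 were 6.37-fold and 6.60-fold higher. The exception was Sgk1, with 111, 143 and 109 CPM in MEFD0 and 131, 149 and 170 CPM in MEFD3plu (log2 fold change 0.31, 95% interval -0.01 to 0.63). It passed in a fit of the compared samples alone, with no filter, with the replicate block, and without MEFD0 replicate 3 or MEFD3plu replicate 1. Sgk1 was at 23.7 ± 5.2 CPM in MEFD3min (mean ± SD, n = 3). Of 20 cAMP response genes, 15 were higher and 3 lower (median 1.96). Rgs2, a regulator of G protein signalling, rose by 4.99 (SE 0.133), Pde4b by 2.35 (SE 0.0866) and Nr4a1 by 1.24 (SE 0.169). Crem and Areg, which belong to the same list, had intervals within 1.5-fold, with levels of 11.1 and 12.7 CPM for Crem and 7.46 and 7.78 CPM for Areg in MEFD0 and MEFD3plu.

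Mitochondrial and peroxisomal fatty acid oxidation was higher as a group, with 22 of 23 genes up, none down and a median of 1.42. Acadm, the medium-chain acyl-CoA dehydrogenase, had 57.2, 55.7 and 53.3 CPM in MEFD0 and 422, 425 and 460 CPM in MEFD3plu (log2 fold change 2.97, SE 0.0929). Pex11a, which divides peroxisomes, rose by 3.70 (SE 0.106). Cpt1a, the entry step of mitochondrial oxidation, rose less, from 93.2 to 146 CPM. The share of counts on mitochondrial genes was also higher in MEFD3plu, as given above, and its part in these differences was not tested. Of 13 tested brown fat genes, 11 were higher, none was lower and the median was 4.65, or 2.75 with genes at 0 in MEFD0 set at their bound. Without MEFD3plu replicate 4 the median was 3.25 with 9 higher, and in a fit of the compared samples alone it was 2.72 with 9 of 11 higher. Dio2, the deiodinase that activates thyroid hormone, rose by 5.64 (SE 0.323) to 14.7 CPM. Ucp1, the uncoupling protein of brown fat, had 0.0686, 0.398 and 0.195 CPM in MEFD0 and 1.13, 1.63 and 1.95 CPM in MEFD3plu, below the 4.54, 2.84 and 4.98 CPM of MEFD3min. Its log2 fold change was 2.75, or 3.48 without MEFD0 replicate 3. Prdm16, the brown fat determination factor, had 0.570 CPM in MEFD0 and 0.465 CPM in MEFD3plu and did not pass.

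De novo lipogenesis showed no common direction against the starting cells. Of 16 genes, 7 were higher, 5 were lower and the median was 0.07, as over all genes at this rounding, while in MEFD3min/MEFD0 the median was -0.55 with 10 lower. Fasn, the fatty acid synthase, had 688, 845 and 570 CPM in MEFD0, 525, 592 and 477 CPM in MEFD3plu and 240, 361 and 206 CPM in MEFD3min. The MEFD0 and MEFD3plu samples overlapped (log2 fold change -0.40, 95% interval -0.80 to 0.00), and MEFD3min lay below both. Fasn passed as lower with DESeq2, in a fit of the compared samples alone and with total counts as the scaling. The same held with no filter, with the replicate block and without MEFD0 replicate 4. Acly, which makes cytosolic acetyl-CoA, had 428, 455 and 383 CPM in MEFD0 and 468, 436 and 441 CPM in MEFD3plu and was level within 1.5-fold. Scd1, the stearoyl-CoA desaturase, was 3.30-fold higher and Elovl6, an elongase, fell from 230 ± 8.99 to 74.7 ± 3.82 CPM (mean ± SD, n = 3 each). Thrsp, a lipogenic regulator, rose from 0.118 to 58.9 CPM, by 8.93 on the log2 scale, or 9.85 without MEFD0 replicate 4.

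Among the 25 lists, those of the cell cycle had the lowest medians. All 42 S phase genes and all 40 G2/M genes were lower in MEFD3plu than in MEFD0, with medians of -2.06 and -2.37, where 29.7% of all genes were lower. Mki67, the proliferation antigen Ki-67 on chromosome 7 from 135689784 to 135716361, had 821, 785 and 719 CPM in MEFD0 and 134, 123 and 138 CPM in MEFD3plu (log2 fold change -2.56, SE 0.0765, adjusted p = 4.83e-14 in edgeR's test). Mcm5, of the replicative helicase, had 212, 233 and 208 CPM against 36.3, 37.6 and 34.4 CPM, and Anln, a cytokinesis protein, had 426, 420 and 424 CPM against 51.8, 49.5 and 53.6 CPM. No treated sample came near a starting sample for these genes. The range over the lists ran from -3.04 for Dscc1, a cohesion factor, to -0.53 for E2f2. The same 82 genes were lower in MEFD3min, with medians of -2.0 and -2.28, and their summed level in MEFD3min and MEFD3plu overlapped for G2/M, at 1247 to 1566 and 1214 to 1306 CPM, against 6470 to 6564 CPM in MEFD0. Stretches of 50 bases that also occur in other genes made up 42.1% of Ccnb1 and 31.8% of Pcna.

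The D cyclins and cell cycle inhibitors split, with 9 of 20 higher and 6 lower, against 33.9% and 29.7% of all genes. Ccnd1 fell from 837 ± 10.3 to 164 ± 4.16 CPM and its partner kinase Cdk4 from 623 ± 45.2 to 260 ± 11.8 CPM, whereas Ccnd3 stood at 81.4 ± 2.96 and 299 ± 19.9 CPM, 3.67-fold higher (mean ± SD of 3 samples). Antisense genes overlap 23.4% of the exon bases of Ccnd1 and 19.7% of those of Cdk4. Cdkn2c, which encodes the inhibitor p18, rose by 2.21 (SE 0.0990) and Cdkn1c, which encodes p57, by 4.42 (SE 0.245, with 30.7% of its exon bases opposite another gene). Cdkn1a, which encodes p21, had 131, 132 and 132 CPM in MEFD0 and 139, 149 and 133 CPM in MEFD3plu. Those samples were level (log2 fold change 0.09, 95% interval -0.11 to 0.30), while MEFD3min had 47.5, 49.2 and 48.9 CPM.

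The contractile apparatus was lower for 22 of 27 genes and higher for 2 (median -1.11). Acta2, smooth muscle actin, on chromosome 19 from 34241090 to 34255590, had 297, 322 and 338 CPM in MEFD0, 15.9, 11.8 and 15.7 CPM in MEFD3plu and 81.4, 77.9 and 106 CPM in MEFD3min. The decrease was 22.0-fold (log2 fold change -4.46, SE 0.120, adjusted p = 2.88e-14 in edgeR's test). Tagln, or SM22, fell by 4.79 (SE 0.154), but 67.9% of its exon bases lie opposite another gene and the strand setting of the counting is not known here. Tpm1, a tropomyosin, fell from 674 ± 7.38 to 115 ± 1.44 CPM and Flna, which cross-links actin, from 1863 ± 265 to 433 ± 8.96 CPM (mean ± SD, n = 3 each). Vcl, encoding vinculin, and Smtn were level within 1.5-fold. Ccn2, encoding the connective tissue growth factor of the matrix list, fell by 4.15 (SE 0.242). Vim, the intermediate filament of mesenchymal cells, had 5862, 6501 and 7264 CPM in MEFD0 and 1175, 1100 and 1101 CPM in MEFD3plu.

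Matrix genes moved mainly upward from the start in both day 3 conditions. Of 34 fibrillar matrix genes, 24 were higher and 7 lower (median 1.46), and of 19 basement membrane genes 14 were higher and 2 lower (median 1.81). In MEFD3min/MEFD0, 27 of the fibrillar genes were higher and 4 lower (median 1.81). In MEFD3plu/MEFD3min, 8 fibrillar genes were higher and 19 lower, and 8 basement membrane genes were higher and 5 lower. The summed fibrillar level was 26140 to 28689 CPM in MEFD3plu and 35279 to 51846.5 CPM in MEFD3min. Postn, encoding periostin, had 9.43, 12.6 and 9.83 CPM in MEFD0, 1524, 1548 and 1817 CPM in MEFD3plu and 425, 357 and 441 CPM in MEFD3min. Col4a1, of the network collagen around fat cells, had 467, 553 and 372 CPM in MEFD0, 3660, 4165 and 3842 CPM in MEFD3plu and 882, 1462 and 946 CPM in MEFD3min. For these genes MEFD3plu was highest of the 3 conditions. Dcn, encoding decorin, and Lum, encoding lumican, were highest in MEFD3min, with 15.3 and 0.772 CPM in MEFD0, 450 and 20.8 CPM in MEFD3plu and 2830 and 361 CPM in MEFD3min. Fn1, encoding fibronectin, was below the starting level in MEFD3plu and above it in MEFD3min, with log2 fold changes of -0.83 (SE 0.232) and 1.23 (SE 0.232). MEFD3min replicate 3 held 7941 CPM of Fn1, against 3874 and 3877 CPM in the others.

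Matrix proteases and their inhibitors were higher for 18 of 24 and lower for 5 (median 1.47). In MEFD3min/MEFD0, 18 of the 24 were also higher and 2 lower (median 1.93). Adam12, a membrane-bound metalloprotease, rose by 3.51 (SE 0.134) to 208 CPM. Mmp3, encoding stromelysin, had 83.5, 87.1 and 102 CPM in MEFD0, 10.3, 12.3 and 15.1 CPM in MEFD3plu and 729, 644 and 916 CPM in MEFD3min, so treated cells lay below and untreated cells above the start. Genes of preadipocyte and mesenchymal identity divided, with 9 of 26 higher and 12 lower, against 33.9% and 29.7% of all genes. Wnt10b, a Wnt ligand that holds back adipogenesis, fell from 15.7 ± 0.944 to 0.760 ± 0.0883 CPM, the surface antigen Thy1 from 93.1 ± 6.17 to 15 ± 1.04 CPM and Hmga2, a chromatin protein of proliferating mesenchyme, from 1661 ± 63.9 to 247 ± 15 CPM (mean ± SD, n = 3 each). Pdgfra, the receptor that marks adipose progenitors, was higher, at 124 ± 8.88 against 254 ± 9.95 CPM.

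Inflammatory genes were higher for 16 of 27 and lower for 5 (median 0.58), against 33.9% and 29.7% of all genes. The 5 became 2 without MEFD0 replicate 3 and 3 without MEFD0 replicate 4, MEFD3plu replicate 3 or MEFD3plu replicate 4. In MEFD3min/MEFD0, 20 of the 27 were higher and 3 lower (median 0.79). C3, complement component 3, had 0.0686, 0.0530 and 0.0279 CPM in MEFD0 and 187, 222 and 211 CPM in MEFD3plu (log2 fold change 11.94, SE 0.701). Saa3, an acute phase apolipoprotein, had 1 count in MEFD0 and 133, 148 and 182 CPM in MEFD3plu, a ratio of 16015 with a counting interval of 2874 to 632546. The fitted log2 fold change of Saa3 was 13.48, or 15.30 without MEFD0 replicate 4. In MEFD3min, C3 stood at 2.6 ± 0.808 CPM and Saa3 at 0.135 ± 0.0737 CPM (mean ± SD, n = 3), above MEFD0 and far below MEFD3plu. Ccl2, the monocyte chemokine, was 2.48-fold above MEFD0, with 279 ± 63.5 CPM in MEFD3min (mean ± SD, n = 3), and Csf1, the macrophage growth factor, fell by 1.72 on the log2 scale. Glycolysis and hypoxia genes split, with 13 of 24 higher and 9 lower, against the same shares of all genes. Pfkfb3, which makes the activator of phosphofructokinase, rose 8.63-fold, Vegfa 2.46-fold, and Pkm, pyruvate kinase, fell from 2301 ± 115 to 1130 ± 28.4 CPM (mean ± SD, n = 3 each).

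The question of which functions stood equal in MEFD3plu and MEFD0 needs an interval rather than a test that fails. A gene was taken as level when the 95% interval of its log2 fold change lay within 1.5-fold in either direction, and 3918 genes (24.5%) were, 1166 of which were also DEGs with small changes. A further 3083 genes were neither level nor DEGs, so for them no statement can be made. In MEFD3min/MEFD0, 5024 genes (31.4%) were higher and 4578 (28.6%) lower, and in MEFD3plu/MEFD3min 4480 (28%) were higher and 4487 (28%) lower. These contrasts share samples with MEFD3plu/MEFD0. Untreated cells had moved by at least 2-fold from MEFD0 for 4068 DEGs. Of these, 201 (1.26% of the genes tested and 4.94% of the 4068) were level in MEFD3plu and MEFD0 and differed from MEFD3min in the opposite sense, 109 with MEFD3min higher and 92 with MEFD3min lower.

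**Figure D3:**
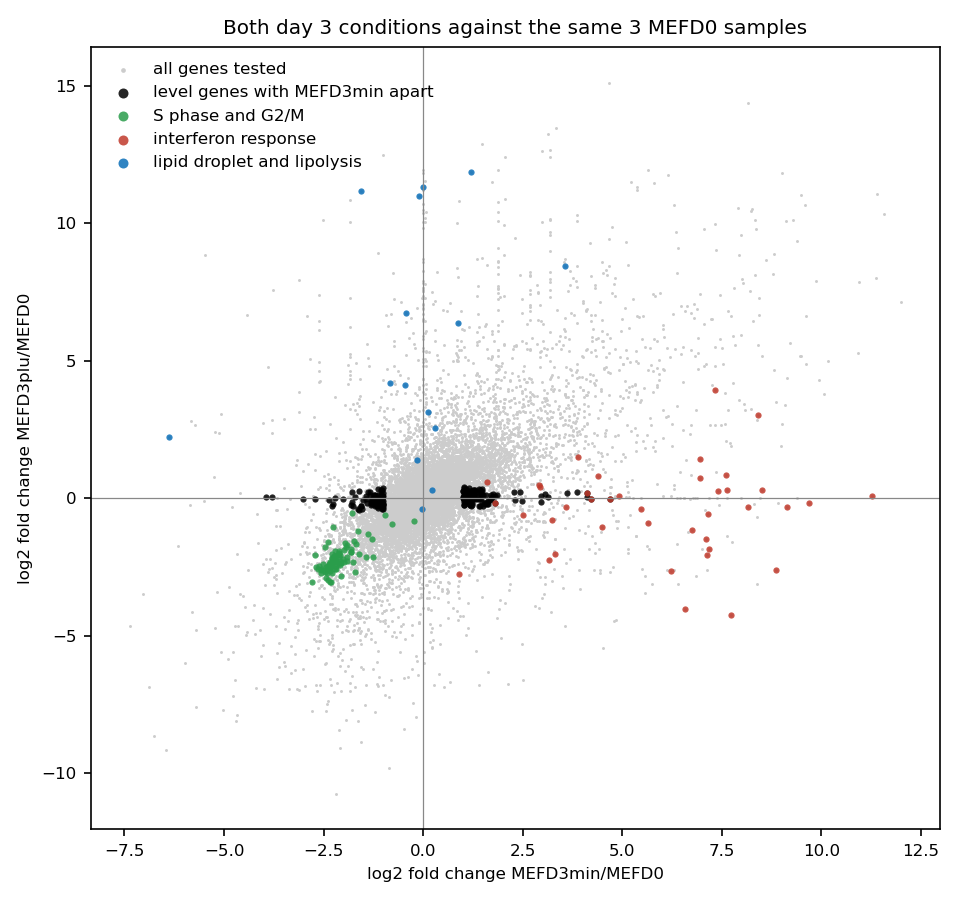
Log2 fold change in MEFD3min/MEFD0 (x axis) and MEFD3plu/MEFD0 (y axis) of all 15997 genes, with 3 gene groups and the 201 level genes coloured. Both axes use the same MEFD0 samples. The interferon list spreads to the right along the horizontal line, S phase and G2/M genes lie in the lower left, and most lipid droplet genes rise along the vertical line.

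Interferon response genes were low at the start, low in treated cells and high in untreated cells. All 40 genes of the list were higher in MEFD3min/MEFD0, with a median log2 fold change of 6.4, and all 40 were lower in MEFD3plu/MEFD3min. The summed level was 279 to 293 CPM in MEFD0, 213 to 222 CPM in MEFD3plu and 5326 to 6779 CPM in MEFD3min. In MEFD3plu/MEFD0, 21 of the 40 did not pass the test, 13 were lower and 6 were higher, with a median of -0.25. Of all genes, 29.7% were lower and 33.9% higher, so the share of lower genes was near that of all genes. Only 4 met the interval for level genes, namely Ifih1, Trim30a, Parp9 and Isg20, where 24.5% of all genes did. Ifih1, the RNA sensor MDA5, on chromosome 2 from 62595798 to 62646255, had 5.93, 4.03 and 3.96 CPM in MEFD0, 5.42, 3.95 and 4.12 CPM in MEFD3plu and 117, 114 and 129 CPM in MEFD3min. Trim30a, an interferon-induced ubiquitin ligase whose promoter letters are shown above, had 9.16, 8.54 and 10.6 CPM, 8.46, 8.84 and 10.2 CPM and 179, 153 and 194 CPM. The starting and treated samples overlapped for both genes, and untreated samples were more than 10 times higher. With a sample left out, the interval of Ifih1 and Parp9 passed 1.5-fold in each of the 6 cases. That of Ifih1 also did so with total counts as the scaling, and that of Parp9 with 10 counts required in every sample.

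Many interferon genes were too low in both MEFD0 and MEFD3plu for their equality to be shown. Isg15, a ubiquitin-like modifier, had 0.686, 0.742 and 1.06 CPM in MEFD0, 0.512, 0.815 and 0.677 CPM in MEFD3plu and 231, 186 and 305 CPM in MEFD3min, and its 95% interval in MEFD3plu/MEFD0 was -1.68 to 1.05. Others did differ from the start. Ifit2, an RNA-binding antiviral protein, had 75.4, 73.0 and 72.1 CPM in MEFD0, 10.7, 10.3 and 11.6 CPM in MEFD3plu and 135, 119 and 160 CPM in MEFD3min (log2 fold change -2.76 in MEFD3plu/MEFD0, SE 0.138). Ifit1 fell by 0.88 (SE 0.282) and Eif2ak2, the kinase PKR, by 0.60. Rsad2, encoding viperin, was 8.26-fold above MEFD0 in MEFD3plu, at 1.24 ± 0.244 CPM (mean ± SD, n = 3).

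Antigen presentation resembled interferon response in untreated cells but not fully in treated ones. Of 19 genes, 18 were higher in MEFD3min/MEFD0 (median 3.45), whereas in MEFD3plu/MEFD0 9 were higher, 5 lower and 5 did not pass (median 0.26). The shares of all genes in MEFD3plu/MEFD0 were 33.9% higher and 29.7% lower, so the lower share was near that of all genes. B2m, the light chain of class I molecules, had 1081, 1121 and 1180 CPM in MEFD0, 928, 908 and 1188 CPM in MEFD3plu and 3120, 2882 and 3773 CPM in MEFD3min. Tap1, of the peptide transporter, had 9.5, 9.81 and 9.55 CPM, 9.99, 10.3 and 10.2 CPM and 70.3, 76.5 and 77.6 CPM. Both genes were level between MEFD0 and MEFD3plu. The heavy chains were not: H2-K1 was 4.66-fold and H2-T23 11.3-fold above MEFD0 in MEFD3plu, and 527 ± 30.9 CPM of H2-K1 were found in MEFD3min (mean ± SD, n = 3). Gbp2, a guanylate-binding protein, fell to 0.668 ± 0.436 CPM from 2.72 ± 0.475 CPM (mean ± SD, n = 3 each).

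Ribosome biogenesis was high at the start and lower in both day 3 conditions, less so in treated cells by the list median. The summed level was 6896 to 7061 CPM in MEFD0, 4383 to 4858 CPM in MEFD3plu and 3514 to 4562 CPM in MEFD3min. By this sum the day 3 conditions overlapped and lay under the start. In MEFD3min/MEFD0, 33 of 34 genes were lower (median -0.91), and in MEFD3plu/MEFD0 23 were lower, none was higher and 11 did not pass (median -0.45), with 14 of the 34 level. The shares of all genes were 28.6% lower in MEFD3min/MEFD0, and 29.7% lower and 24.5% level in MEFD3plu/MEFD0. With the replicate block 2 genes were higher. Myc, the factor that drives ribosome production, on chromosome 15 from 61985391 to 61990374, had 66.4, 64.6 and 60.7 CPM in MEFD0, 71.7, 81.1 and 72.3 CPM in MEFD3plu and 23.3, 29.7 and 23 CPM in MEFD3min. All treated samples of Myc lay slightly above the starting samples, by 0.23 (SE 0.101) on the log2 scale, a difference that did not pass the test, and untreated samples lay far below. Rrp12, of ribosomal subunit export, had 55.8, 60.3 and 52.6 CPM in MEFD0, 49.0, 50.7 and 44.1 CPM in MEFD3plu and 15.1, 17.7 and 14.8 CPM in MEFD3min. Urb1 and Nolc1 were the other level genes of this list with MEFD3min apart. Utp20, of the small subunit processome, fell in both day 3 conditions, to 86.6 ± 3.57 CPM in MEFD3plu and 65.3 ± 3.89 CPM in MEFD3min from 231 ± 12.3 CPM (mean ± SD, n = 3 each), and Npm1, encoding nucleophosmin, fell by 0.77 (SE 0.147) in MEFD3plu. Other genes hold 40.9% of the 50-base stretches of Npm1.

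Cholesterol synthesis was lower in untreated cells for 20 of 24 genes, and in treated cells for 15, with 3 higher and 8 level (median -0.65 in MEFD3plu/MEFD0). Among all genes, 28.6% were lower in MEFD3min/MEFD0, and 29.7% were lower and 24.5% level in MEFD3plu/MEFD0. Lss, the lanosterol synthase, had 140, 151 and 125 CPM in MEFD0, 141, 147 and 122 CPM in MEFD3plu and 47.1, 57.2 and 50.5 CPM in MEFD3min. Insig1, the sterol sensor that retains the SREBP factors, had 186, 206 and 187 CPM, 180, 178 and 179 CPM and 84.3, 95.4 and 88.6 CPM. These genes were level, as was Nsdhl, whereas other steps of the pathway were not. Cyp51, the lanosterol demethylase, rose by 0.57 (SE 0.108).

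**Figure D4:**
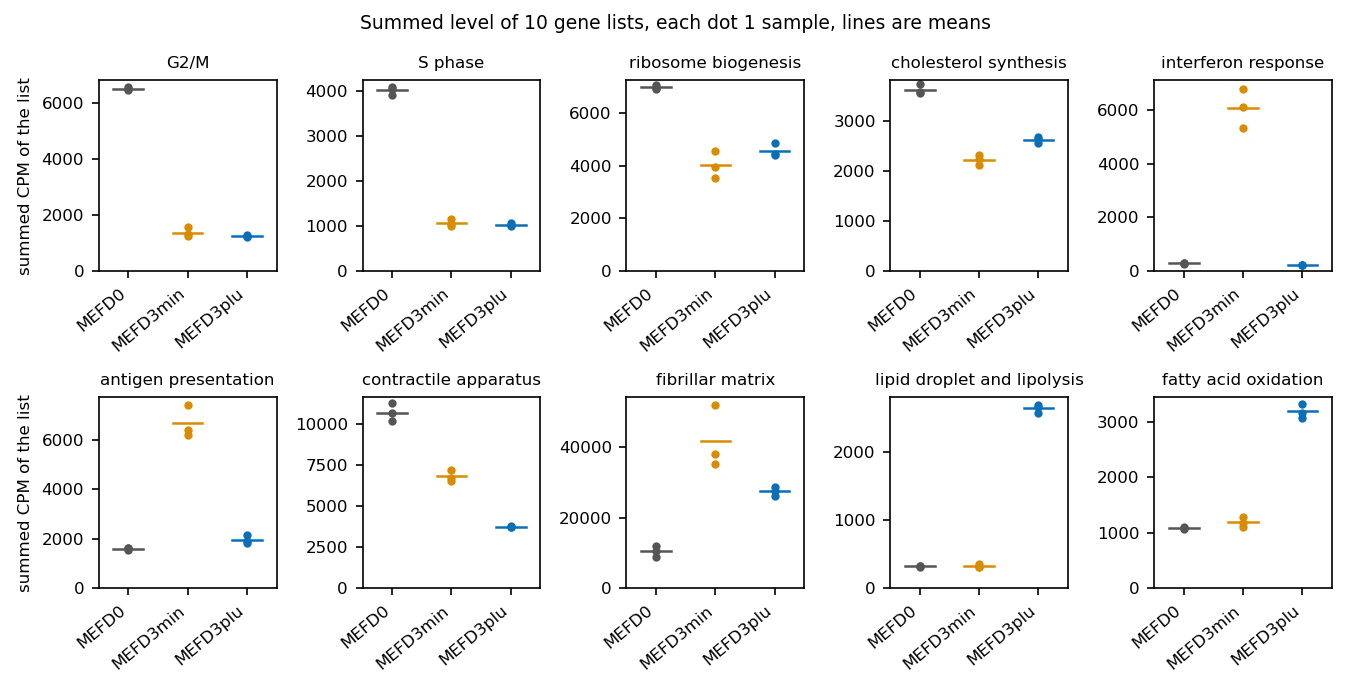
Summed CPM of the members of 10 gene lists (y axes, each from 0) in MEFD0, MEFD3min and MEFD3plu, with each dot 1 sample and lines for means of 3. MEFD3plu stands near MEFD0 for interferon response and antigen presentation, with MEFD3min for S phase and G2/M, and apart from both for lipid droplet genes and the contractile apparatus. For ribosome biogenesis MEFD3plu overlaps MEFD3min and lies under MEFD0.

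Among level genes with MEFD3min higher, 10 genes were named by the size of the MEFD3min change, again with a mean log2 CPM of 3 or more. Besides Ifih1, Trim30a, Parp9 and Tap1 these were Dtx3l, the ubiquitin ligase partner of Parp9, Lsp1, Lrrn4cl, Tor3a, Trim12c and Bnc1. Lsp1, an actin-binding protein first known from leukocytes, had 28.9, 31.6 and 27.6 CPM in MEFD0, 34.3, 34.8 and 35.0 CPM in MEFD3plu and 424, 391 and 456 CPM in MEFD3min. Lrrn4cl, a small leucine-rich repeat membrane protein, had 17.3, 18.9 and 17.6 CPM, 19.6, 19.9 and 22.7 CPM and 212, 204 and 243 CPM. In both, treated cells lay a little above the start and untreated cells more than 10 times higher. Of the 82 matched promoters of level genes with MEFD3min higher, 10 (12.2%) held the interferon element, against 3.79% of all. Outside the rule, and chosen after their values were seen, the lysosomal enzymes Ctsb and Glb1 belonged to this group. Glb1, the lysosomal beta-galactosidase, had 54.1, 58.9 and 56.8 CPM in MEFD0, 53.9, 57.6 and 56.5 CPM in MEFD3plu and 138, 150 and 147 CPM in MEFD3min.

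Level genes with MEFD3min lower were Cobll1, Apln, Taf4b, Baz1a, Rrp12, Ccn3, Slc25a5, Lurap1l, Nolc1 and Ddx21 by the same rule. Baz1a, a chromatin remodelling subunit on chromosome 12 from 54892989 to 55014348, had 71.0, 69.5 and 62.3 CPM in MEFD0, 67.2, 67.7 and 65.5 CPM in MEFD3plu and 17.2, 16.6 and 16.1 CPM in MEFD3min. The starting and treated samples overlapped and the log2 fold change was -0.02 (95% interval -0.18 to 0.15). Ddx21, a nucleolar helicase, was within the interval but nonetheless a DEG. It left the interval with DESeq2 or its size factors, with total counts and with no filter. The same held for the compared samples alone and with any sample left out. Ddx21 had 304, 315 and 299 CPM in MEFD0, 228, 228 and 234 CPM in MEFD3plu and 101, 96.8 and 103 CPM in MEFD3min (-0.41, SE 0.0794). Slc25a5, a mitochondrial ADP/ATP carrier, had 488 ± 32.7 CPM in MEFD0, 403 ± 31.3 CPM in MEFD3plu and 144 ± 30.7 CPM in MEFD3min (mean ± SD, n = 3 each). Other genes hold 46.6% of its 50-base stretches. Of 20 regulators of adipogenesis, Klf5 was the 1 level gene of this kind, with 7.00, 7.05 and 4.97 CPM in MEFD0, 7.33, 5.80 and 5.53 CPM in MEFD3plu and 0.956 ± 0.259 CPM in MEFD3min (mean ± SD, n = 3). Its interval passed 1.5-fold with total counts as the scaling, without any 1 of the MEFD0 samples, and without MEFD3plu replicate 1 or 4. Among the level genes of both directions, Cobll1, Slc25a5 and Nolc1 also left the interval with total counts and without some single samples, and Lsp1, Tor3a, Trim30a, Dtx3l and Trim12c without some single samples. Cobll1 left it with DESeq2 and its size factors as well. Rrp12 left it with total counts, Nsdhl with total counts and without MEFD3plu replicate 1, and Urb1 without some single samples. Gk, the glycerol kinase, was level at 34.8 and 41.8 CPM, with 11.4 CPM in MEFD3min.

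**Figure D5:**
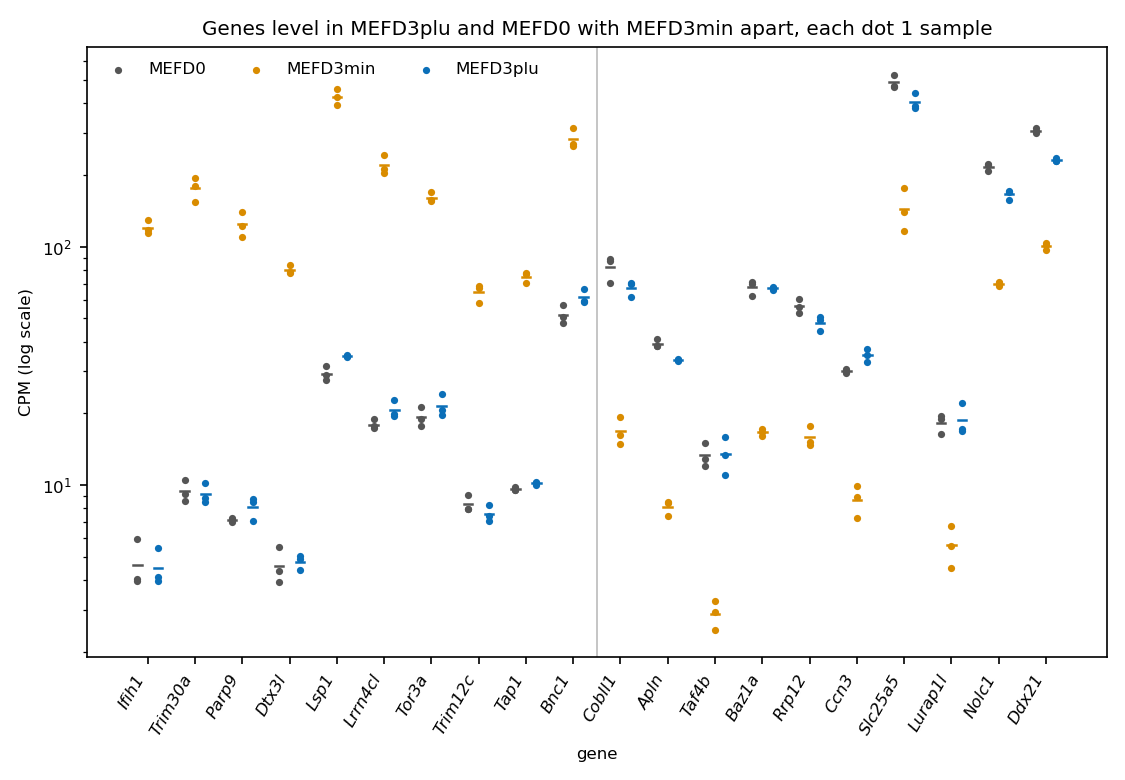
CPM on a log axis of the 10 level genes with the highest MEFD3min (left of the line) and the 10 with the lowest (right), relative to MEFD0, with each dot 1 sample and short lines for means of 3. In every gene the MEFD0 and MEFD3plu dots lie near each other and the 3 MEFD3min dots lie apart from both.

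Markers of other cell types were found at low levels or fell, with exceptions. The summed level of 15 macrophage markers was 11.4 to 13.2 CPM in MEFD0 and 7.52 to 9.31 CPM in MEFD3plu, of 11 endothelial markers 3.01 to 3.29 and 10.9 to 13.2 CPM, and of 11 neural markers 44.9 to 49.2 and 15.5 to 17.1 CPM. In MEFD3min the sums were 14.7 to 17.8 CPM (macrophage), 12.4 to 13.1 CPM (endothelial) and 16.8 to 18.3 CPM (neural). Among 5 tested macrophage markers, 3 were higher and 2 lower. Log2 fold changes were 1.18 for Mrc1, 0.78 for Cd68 and -2.06 for Cd14. Of 7 tested neural markers 4 were lower and 2 higher, with Map2, a microtubule protein, at 32.7 and 7.31 CPM and Snap25, of synaptic vesicle fusion, at 0.206 and 5.68 CPM (log2 fold change 4.77, SE 0.452). The 12 muscle markers summed to 0.137 to 0.223 CPM in MEFD0, 1.35 to 1.92 CPM in MEFD3plu and 1.94 to 2.39 CPM in MEFD3min. The 2 that were tested, Des and Tnnt3, were both higher in MEFD3plu, by 3.37 (SE 0.747, or 4.27 without MEFD0 replicate 4) and 2.93 (SE 0.468). Cdh5, the endothelial cadherin, went from 84 counts in MEFD0 to none in MEFD3plu, at least 26.4-fold lower, while Emcn, encoding endomucin, went from 3 counts to 537 counts, a ratio of 190 with a counting interval of 65.0 to 922. Their part in the results above was not tested. Xist was below 1 CPM in all 6 samples, and the 4 Y-linked genes were expressed in all of them. All 4 Y-linked genes were also higher in MEFD3plu, from 0.46 for Kdm5d to 0.92 for Eif2s3y on the log2 scale. Xist, at its low level, passed as higher too, by 3.09. In MEFD3min/MEFD0 these 5 genes were also all higher, with a median log2 fold change of 0.68, against 0.72 in MEFD3plu/MEFD0.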

How the data were processed

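RNA of mouse embryonic fibroblasts was sequenced in 15 samples. The authors deposited raw read counts per Ensembl gene, 1 table per sample. The submitters' processing notes name TopHat2 2.1.0, HTSeq and DESeq2, and the build GRCm38 (mm10). Strand and multi-mapping settings are not given in the sources used here, so reads of overlapping or near-identical genes may be split or merged. Groups came from sample titles. Counts were normalised by TMM after edgeR's expression filter (15997 genes kept) and fitted once over all 15 samples with edgeR 4.0.16's quasi-likelihood test in R 4.3.3, with Benjamini-Hochberg adjustment over all genes tested and a threshold of 0.05. The log2 CPM used for gene choice had a prior count of 2. Where a condition had no count, a fold is a lower bound against 3 counts over its samples. Scripts were tested on simulated data.

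Named genes were the 10 most changed in each direction (mean log2 CPM 3 or more, no overlap, predicted genes left out), up to 4 called members in each direction of each list with mean log2 CPM 0 or more, members whose role is explained, and 10 level genes in each direction. The comparison and lists were chosen with earlier results of these data known. Alternatives were DESeq2 1.42.0, other scalings, filters, thresholds and margins, a replicate block, and leaving out each sample. Some genes that the rule names are not reported here.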

Additional observations from a re-analysis of the deposited data

How the results depend on the processing

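No gene called both in the main fit and in an alternative fit changed direction. A gene that lost its call was not part of this check. DESeq2 called 10313 genes, a fit of the compared samples alone 10118, DESeq2's size factors 10138, total counts as the scaling 10059, no filter 10687, and an adjusted p under 0.01 8578, against 10162. With total counts, 9433 of the called genes were shared with the main fit. Requiring 10 counts in every sample left 3106 genes changed at least 2-fold, 1577 of them higher, against 4955 and 2676, since genes absent from a condition are then not tested. Leaving out 1 sample gave 9482 to 9805 called genes, 4891 to 5004 changed at least 2-fold and 170 to 254 level genes with MEFD3min apart. That last set moved with its margin: 619 genes (351 with MEFD3min higher, 268 lower) at 2-fold, 42 (20 and 22) at a narrower margin, and 1666 (742 and 924) with any called MEFD3min change, against 201. With total counts as the scaling, the share of higher genes among those called was 46.6% against 53.3%, so that lower genes became the majority (2411 higher and 2531 lower at 2-fold). The level genes then numbered 222, and 141 of them were among the 201.

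Correlations of deviations between MEFD0 and MEFD3plu samples of the same number were 0.124, 0.0706 and 0.110, so the numbers were not taken as pairs, although each sample correlated best with its own number. With the replicate block, 10553 genes were called, 4963 at least 2-fold, and 221 were level with MEFD3min apart. Of 257 named genes, 9 lost and 2 gained their call in at least 1 alternative, 15 left the 1.5-fold margin in at least 1, and 0 of those judged by their call reversed.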
